A study of Mus musculus with 2744 samples.

Results

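Imprinted genes are expressed mainly from the copy inherited from 1 parent, because methylation set in the egg or sperm marks the parental copies differently. They lie in domains that pair protein-coding genes with long noncoding RNAs of the opposite parental origin, and many of them act on growth, on the placenta and on the developing nervous system. The imprinted genes described here are Meg3, Rian, H19, Igf2, Peg3, Peg10, Dlk1, Ndn, Plagl1 and Grb10. They were taken by gene symbol, and all 10 were found among the 23968 genes of the count tables. The counts do not separate the parental copies, so what follows is the total expression of each gene and says nothing of its parental origin.

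The data were single-cell RNA sequencing counts from mouse embryonic stem cells differentiated in culture into motor neurons by the Wichterle method. Embryoid bodies, the floating cell aggregates of this method, were dissociated with papain, single cells were sorted into plates, and libraries were made with a modified CEL-seq protocol, which primes on the poly(A) tail. Cells were collected on Days 2, 3, 4, 5 and 6 without an eGFP label, and on Day 6 also as cells labelled eGFP+ (1 plate of the main experiment) and eGFP++ (main and pilot). The series has a main experiment of 2304 cells on 24 plates and a pilot of 440 cells on 11 plates, and all groups share the culture protocol. The labels do not name the genotype of the cells or the promoter that drives eGFP. The Egfp sequence, which the tables count as a gene, gave 0 to 34.4 counts-per-million (CPM) on Days 2 to 4, 3804 CPM (main) and 2709 CPM (pilot) on Day 6, 1488 CPM in eGFP+ cells and 9759 CPM (main) and 4413 CPM (pilot) in eGFP++ cells.

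Reads were summed over the 2448 cells with at least 500 detected genes, for each group and experiment, giving 13 sums of 16370502 to 100972780 gene reads. CPM values were taken over the gene reads of each sum, and since reads are not scaled to transcript length they compare a gene between groups and not 1 gene with another. Cells of 1 culture are not independent, so the experiment was the replicate (n = 2 in each group but eGFP+), and nothing says that the plates came from separate cultures. The protocol in the labels names no molecular identifiers, and intervals cover counting error only. Plates reuse the same wells, and no pair of kept cells had identical counts. Marker genes were checked in the groups. The summed CPM of 8 pluripotency markers was 4558 (main) and 3277 (pilot) on Day 2 against 12.5 and 35.1 on Day 6. That of 8 motor neuron markers was 15.985 and 20.4 on Day 2, 844 and 759 on Day 6, and 2006 and 2582 in eGFP++ cells. In eGFP+ cells, despite their label, the motor neuron markers were at 340 CPM, below Day 6 of main. Day 4 had 1 plate in each experiment with many poor wells (46.88% of wells in main and 40% in the pilot). In main, spike-in reads made up 1.77% of reads for Day 2, 9.86% for Day 6 and 13.07% for eGFP+ cells.

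The members lie in 7 places of the mouse genome (GRCm38.p6). Dlk1 (chr12:109452485-109463336), a paternally expressed membrane protein with epidermal growth factor repeats related to Notch ligands, stands 78 kb from Meg3 (chr12:109540996-109571729), a maternally expressed long noncoding RNA. Rian (chr12:109603945-109661716), a maternally expressed noncoding RNA that hosts small nucleolar RNAs and microRNAs, follows after another 32 kb. H19 (chr7:142575530-142578146), a maternally expressed noncoding RNA, and Igf2 (chr7:142650768-142666816), the paternally expressed insulin-like growth factor 2, are 73 kb apart. Ndn (chr7:62348277-62349928) encodes necdin, a paternally expressed protein of the MAGE family found in postmitotic neurons, and lies in the region that corresponds to Prader-Willi syndrome. Peg3 (chr7:6703892-6730462) encodes a paternally expressed zinc finger protein, and Peg10 (chr6:4747306-4760517) a paternally expressed protein derived from a retrotransposon and needed in the placenta. Plagl1 (chr10:13090832-13131694) is a paternally expressed zinc finger transcription factor that restrains the cell cycle. Grb10 (chr11:11930499-12037428) is an adaptor that dampens insulin and insulin-like growth factor signalling, known to be expressed from the paternal copy in neurons and from the maternal copy in most other tissues.

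Dlk1 and Meg3 belong to the same imprinted domain and to the members whose reads were highest on Day 6, so the 250 bases before a start of each in the RefSeq promoter table are shown (RefSeq, GRCm38.p6, plus strand, chr12:109452573-109452822 and chr12:109540746-109540995), with each CG dinucleotide, the site of DNA methylation, in capitals. The CG motif reads the same on both strands. The Dlk1 window lies within the span given above, since RefSeq begins the gene's span further upstream. Meg3 has a further window in the table (0 CG dinucleotides), and the one at the start of its span is shown.
Dlk1: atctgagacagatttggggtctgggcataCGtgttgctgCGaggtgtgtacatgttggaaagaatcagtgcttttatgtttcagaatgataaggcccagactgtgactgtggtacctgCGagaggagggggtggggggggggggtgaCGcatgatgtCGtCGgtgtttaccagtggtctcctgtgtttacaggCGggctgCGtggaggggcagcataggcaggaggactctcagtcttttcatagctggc
Meg3: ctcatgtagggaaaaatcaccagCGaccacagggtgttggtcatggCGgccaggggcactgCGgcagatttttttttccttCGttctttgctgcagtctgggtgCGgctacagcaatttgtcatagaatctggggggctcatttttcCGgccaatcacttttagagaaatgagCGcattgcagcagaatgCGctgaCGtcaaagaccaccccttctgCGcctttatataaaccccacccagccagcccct
The Dlk1 window holds 8 CG dinucleotides and the Meg3 window 10; of the 32851 promoter windows of this length in the RefSeq table, 43.003% hold at least 8 and 37.8% at least 10, and the median is 6. Of the 10 members, 8 have a window in the table (not H19 and Peg10). Ndn has 5 CG dinucleotides, Plagl1 19 (19.7% of windows hold as many), and Rian 0, while the 2 windows of Grb10 hold 40 (1.31%) and 8. Methylation was not measured in these cells.

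The members' summed reads were low at the start and high at the end. The 10 genes together had 124.4 CPM in main and 126.97 CPM in the pilot on Day 2, 183.7 and 220.8 on Day 3, 316.3 and 848 on Day 4, 487.9 and 435.9 on Day 5, and 1385 and 924 on Day 6. In eGFP++ cells the sum was 2158 CPM in main and 1622 CPM in the pilot, and in eGFP+ cells 835 CPM. The gene with most of the members' reads, not scaled to length, differed between the experiments. On Day 2 it was Meg3 in main (65.7%) and Ndn in the pilot (37.4%), on Day 5 Ndn (34.7%) and Plagl1 (30.9%), on Day 6 Dlk1 (37.7%) and Meg3 (26.3%), and in eGFP++ cells Meg3 (44.3%) and Dlk1 (40.8%). The 3 genes that led in eGFP++ cells, Meg3, Dlk1 and Ndn, held 97.7% of the members' reads there in main and 91.6% in the pilot.

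**Figure D1:**
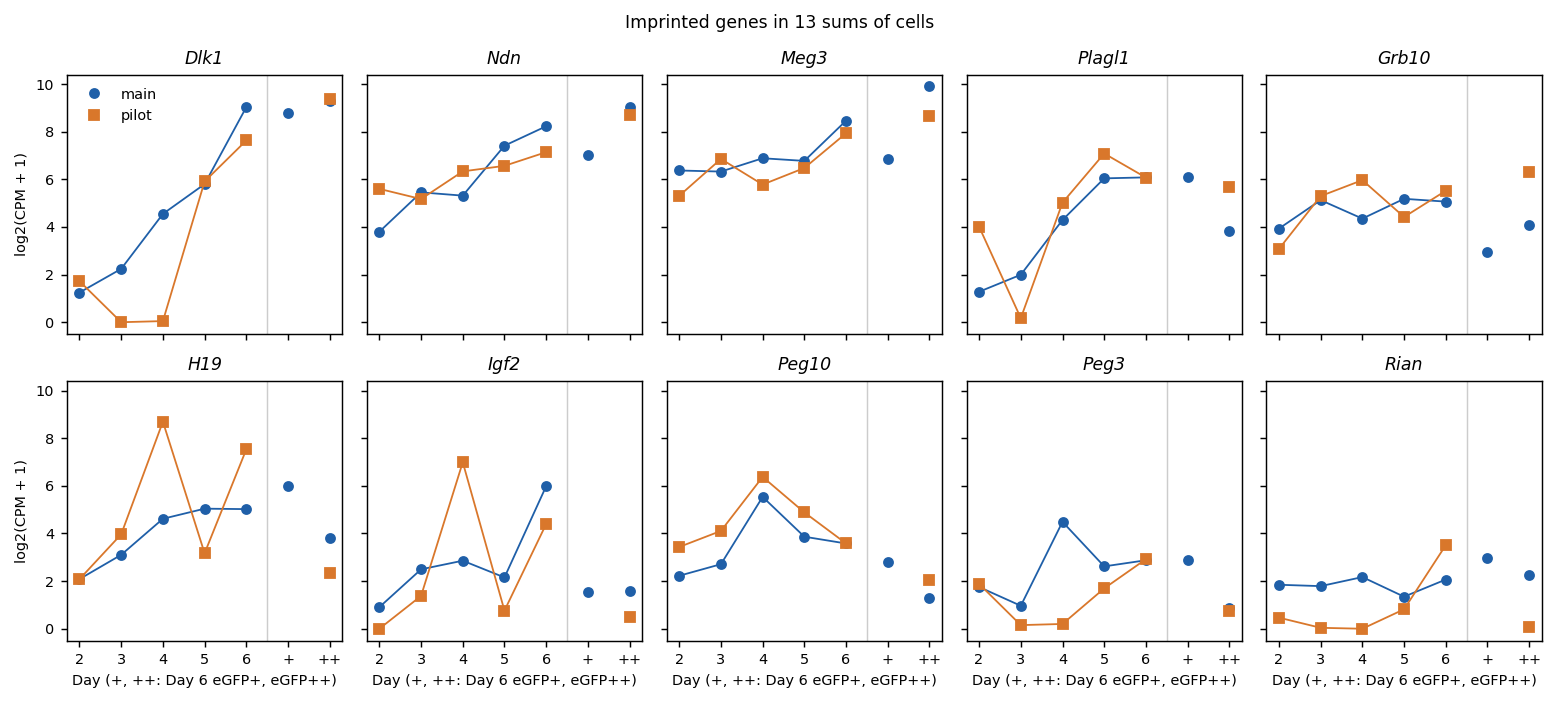
CPM of each imprinted gene on a log2(CPM + 1) scale (vertical axis) by day of differentiation and in Day 6 eGFP+ and eGFP++ cells (horizontal axis, marked + and ++), with blue circles for the main experiment and orange squares for the pilot, each the sum of all kept cells. Dlk1 is under 4 CPM in all 4 sums of Days 2 and 3 and at 197.2 to 661 CPM in all 5 sums of Day 6, while H19, Igf2, Peg10 and Peg3 have their scattered peaks on Day 4 or Day 6.

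Most cells had no read of most members, so the shares of cells were compared at equal depth, after thinning each cell to 10000 gene reads. The mean number of members seen per cell was 0.501 in main and 0.270 in the pilot on Day 2, 1.70 and 1.58 on Day 6, and 2.00 and 1.385 in eGFP++ cells. Cells with no read of any member were 58.6% (main) and 74.3% (pilot) on Day 2, 13.6% and 25.35% on Day 6, and 3.55% and 25.6% in eGFP++ cells. No thinned cell had more than 6 of the 10. A sum cannot tell fewer cells from less RNA per cell, so shares and reads are given side by side below.

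Over Days 2 to 6 of the main experiment, Dlk1 showed the widest range of the 10. In main it gave 1.37, 3.72, 22.4, 54.7 and 521.5 CPM on Days 2, 3, 4, 5 and 6. In the pilot it gave 2.30, 0, 0.0332, 59.1 and 197.2 CPM on Days 2, 3, 4, 5 and 6. The pilot's Day 2 value came to 95.9% from 1 cell, and was 0.0952 CPM without it. Dlk1 was thus near 0 in both experiments on Days 2 and 3, and the Day 6 sums did not overlap with those of any earlier day. The 4 Day 6 plates of main ran from 344.4 to 757 CPM, far above the 4 Day 2 plates (0.691 to 1.95 CPM), whereas the 2 Day 6 plates of the pilot lay far apart (28.3 and 322.1 CPM). The reads came from many cells: the share with a Dlk1 read at equal depth was 1.13% (95% Wilson interval 0.439 to 2.86) on Day 2 and 45.8% (40.65 to 50.97) on Day 6 in main, and 1.35% and 23.9% (15.5 to 35.04) in the pilot. On Day 3 the pilot had 0 of 69 cells with a read, which allows a share of up to 4.35% (3 cells of 69; the upper Wilson limit is 5.27%). Unthinned, 62.7% of the Day 6 cells of main had a read. Of the 29953 Dlk1 reads of Day 6 in main, 17 cells held 50%.

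Ndn had a narrower range than Dlk1, and its Day 6 plates lay closer together. Its CPM in main was 12.9, 42.8, 38.8, 169.2 and 298.6 on Days 2, 3, 4, 5 and 6. In the pilot it was 47.4, 35.04, 79.6, 93.7 and 140.04 CPM on the same days, with 51.1% of the Day 2 reads in 1 cell. Days 3 and 4 were not ordered alike in both experiments, and Days 5 and 6 were above Days 2 to 4 in each. The plates of Day 6 were close together, at 239.6 to 344.2 CPM in main and 138.6 and 141.1 CPM in the pilot, against 5.41 to 15.9 CPM on the Day 2 plates of main. At equal depth 6.48% of main cells had a Ndn read on Day 2, 22.75% on Day 3, 57.1% (51.6 to 62.3) on Day 5 and 53.7% (48.5 to 58.8) on Day 6. In the pilot the shares were 8.11%, 10.1%, 30.7% and 45.1% on those days. On Day 6 in main the share of cells was no higher than on Day 5, while the CPM was higher.

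Meg3 was present from the first day sampled. Its CPM in main was 81.7, 79.2, 117.1, 108.3 and 351.4 on Days 2, 3, 4, 5 and 6. In the pilot it was 38.6, 114.8, 53.9, 87.9 and 243.4 CPM, and 1 cell gave 46.5% of the reads on Day 6 (130.2 CPM without it). Days 2 to 5 had no common order in the 2 experiments, and Day 6 was above them in both. Plates overlapped: the 4 Day 6 plates of main spanned 93.45 to 636 CPM and the 4 Day 2 plates 47.7 to 106.7 CPM. The share of cells with a Meg3 read hardly moved over these days, at 22.8%, 23.2%, 20.35%, 20.9% and 27.97% (23.55 to 32.9) in main on Days 2 to 6. In the pilot it was 8.11% on Day 2 and 18.3% on Day 6. Among the main cells with a read, the median Meg3 level was 108.4 CPM on Day 2 and 284.4 CPM on Day 6.

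Rian, the neighbour of Meg3 on the same strand, was scarce. It gave 1.54 to 3.50 CPM on the 5 days in main and 0 to 0.762 CPM in the pilot but for Day 6. The pilot's 10.4 CPM on Day 6 came to 95.8% from 1 cell and was 0.436 CPM without it. Rian had a read in 0.442% to 1.53% of thinned main cells on the 5 days. The pilot had at most 1 thinned cell with a Rian read in any group. Reads of Meg3 and Rian cannot be told from those of Rtl1, an antisense gene that overlaps both, because the sources used here do not give the strand setting of the counting; Rtl1 itself was counted at no more than 0.861 CPM.

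Plagl1 had its highest sums on Days 5 and 6. In main it gave 1.43, 2.98, 18.6, 64.8 and 66.7 CPM on Days 2, 3, 4, 5 and 6. In the pilot it gave 15.1, 0.125, 31.45, 134.6 and 66.3 CPM, of which 82.75% on Day 2 and 64.5% on Day 4 came from 1 cell. Days 5 and 6 were above the earlier days in both experiments, and did not differ from each other in a common direction. The share of thinned cells with a read was 0.845% on Day 2, 21.8% (17.6 to 26.6) on Day 5 and 14.97% (11.6 to 19.1) on Day 6 in main, and 2.70%, 24% and 25.35% in the pilot. Grb10 showed no such course. Its CPM in main was 14.25, 33.9, 19.4, 35.3 and 32.4 on Days 2 to 6, and 7.44, 38.3, 61.5, 20.4 and 44.8 in the pilot. Day 2 was the lowest day in both, and the order of the other days differed between the experiments. Its share of thinned cells in main was 7.32% on Day 2 and 5.93% on Day 6.

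H19 and Igf2, neighbours that share enhancers in other tissues, were carried by few cells. H19 gave 3.24, 7.60, 23.5, 31.9 and 31.5 CPM in main on Days 2 to 6, and 3.235, 14.6, 412.9, 8 and 183.98 CPM in the pilot. The pilot's Day 4 peak came to 98.1% from 1 cell, and was 7.75 CPM without it. On Day 6 the pilot's 2 plates gave 15.9 and 308.2 CPM, and the sum was 105.15 CPM without its highest cell. Igf2 gave 0.875, 4.635, 6.24, 3.45 and 62.3 CPM in main and 0, 1.60, 126.2, 0.696 and 20.1 CPM in the pilot. Here too 1 cell held 63.1% of the reads on Day 6 in main (23.03 CPM without it) and 80.2% on Day 4 in the pilot (25.02 CPM without it). Igf2 was lowest on Day 2 in both experiments, and Day 6 stayed above Days 2, 3 and 5 in both with the top cell left out of the Day 6 sum. The shares of thinned cells were small throughout: on Day 6, 7.63% (5.29 to 10.9) had an H19 read and 5.65% (3.69 to 8.565) an Igf2 read in main, and 14.1% and 9.86% in the pilot. Reads of Igf2 cannot be told from those of the overlapping antisense gene Igf2os, which was counted at no more than 2.51 CPM.

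Peg10 and Peg3 owed most reads of their highest sums in main to single cells of Day 4. Peg10 gave 3.67, 5.55, 45.4, 13.6 and 10.95 CPM in main on Days 2 to 6, and 9.80, 16.2, 82.01, 28.5 and 10.98 CPM in the pilot. On Day 4, 1 cell held 71.8% of the reads in main (12.8 CPM without it) and 98.9% in the pilot (0.896 CPM without it). With the highest cell left out of every sum, Peg10 in main had 12.8 CPM on Day 4 and 12.3 CPM on Day 5. In the pilot Day 5 was then its highest day (21.07 CPM). Peg3 in main then had 4.65 CPM on Day 4 and 4.42 CPM on Day 6. Peg3 gave 2.37, 0.951, 21.5, 5.14 and 6.34 CPM in main, where 78.3% of the Day 4 reads came from 1 cell (4.65 CPM without it), and 2.68, 0.111, 0.149, 2.24 and 6.57 CPM in the pilot. At equal depth, Peg3 was read in 0.474% to 3.54% of main cells on the 5 days and Peg10 in 3.66% to 7.975%.

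**Figure D2:**
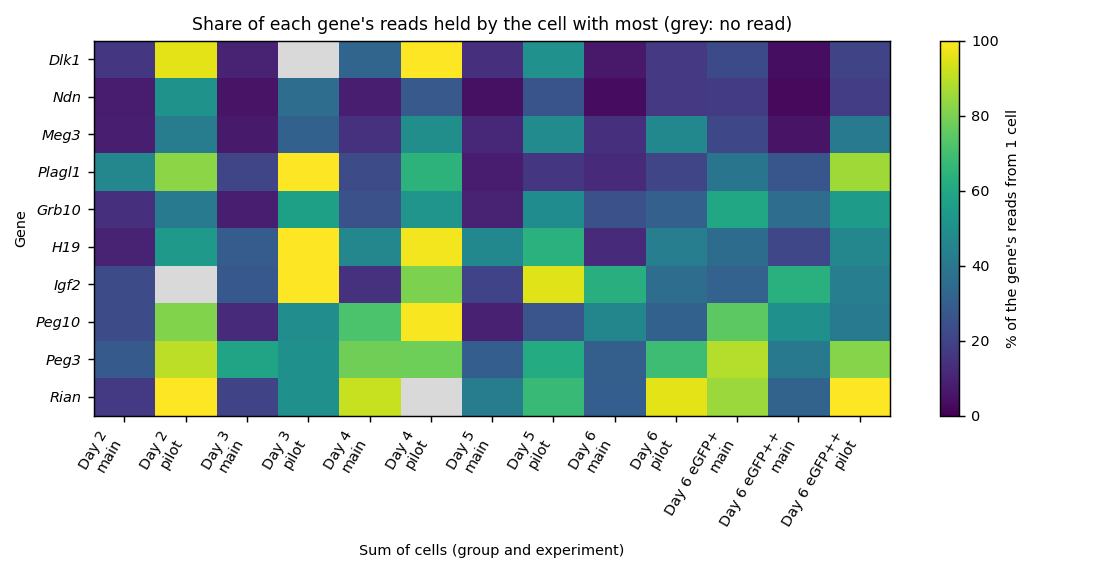
Percent of each gene's reads that came from the single cell with most reads of it (colour, from dark for 0% to yellow for 100%), for the 10 imprinted genes (rows) in the 13 sums (columns, group and experiment), with grey where a gene had no read. Ndn has low percentages across main (under 10% on the 5 days), and 9 of the 10 genes, all but Meg3, have at least 1 sum in which a single cell gave over 50% of the reads.

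Over the 5 days, a rise passed the test for Dlk1 and Ndn. A slope on day was fitted to the 10 sums of Days 2 to 6 with the experiment as a block (edgeR quasi-likelihood test, Benjamini-Hochberg adjustment over 15971 genes). Dlk1 rose by 1.88 ± 0.43 (SE) log2 units per day, adjusted p = 0.0316, and Ndn by 0.71 ± 0.14 log2 units per day, adjusted p = 0.0185. These are 2 of 10 members, both higher, beside 4.18% of all genes tested (667 genes, 47.1% of them higher); at an unadjusted p under 0.05 it was 4 of 10, beside 19.5% of all genes. Meg3 (0.45 ± 0.12 log2 units per day, adjusted p = 0.0558) and Plagl1 (1.15 ± 0.36, adjusted p = 0.0995) missed the threshold. DESeq2 called 6 members higher, adding Meg3, Plagl1, H19 and Igf2, beside 15.9% of all genes.

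All 10 members had a positive slope in that test, with a median of 0.74 log2 units per day beside 0.02 for all genes tested. The members were chosen with earlier results of these data known, so this contrast is a description. Scaling to the spike-in totals moves the median of all genes by -0.53 per day. With it, the slopes of Meg3 (-0.13), Peg3 (-0.09), Peg10 (-0.22) and Grb10 (-0.34) were below 0. The slope of Dlk1 was called with that scaling as well, while that of Ndn was 0.26 (edgeR quasi-likelihood test, adjusted p = 0.261). The calls rest on single sums. Without main's Day 2, main's Day 6 or the pilot's Day 6, neither gene passed (adjusted p in edgeR's quasi-likelihood test up to 0.135 for Dlk1 and up to 0.0812 for Ndn). Without the pilot's Day 2 both passed. Without main's Day 3, 4 or 5, or the pilot's Day 5, Ndn alone passed, and without the pilot's Day 3 or Day 4 there were 4. With the highest cell of each gene left out of each sum, a check chosen after the data had been seen, Dlk1 (2.49 per day, adjusted p = 0.00750, edgeR quasi-likelihood test) and Ndn (0.78, adjusted p = 0.00953) were called and no other member was.

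Between Day 6 and Day 2, every member was higher in both experiments. In main the ratios were 380 for Dlk1, 71.3 for Igf2, 46.7 for Plagl1, 23.1 for Ndn, 9.71 for H19 and 4.30 for Meg3. In the pilot they were 85.6 for Dlk1, at least 351.55 for Igf2 (0 reads on Day 2, set to a floor of 3 reads per sum), 56.9 for H19, 6.31 for Meg3, 4.39 for Plagl1 and 2.95 for Ndn. Over the 10 members the median ratio was 2.69 log2 units in main and 2.62 in the pilot, where all genes tested had 0.15 and -0.05. This contrast too is a description, because the members were chosen with earlier results of these data known. No member passed the test of Day 6 against Day 2 (edgeR quasi-likelihood test, 0 of 10, beside 0.833% of 16080 genes). At an unadjusted p under 0.05 it was 6 of 10, beside 13.7% of all genes, and DESeq2 called 5, beside 12.7%. Meg3 came closest in edgeR's quasi-likelihood test with 2.29 ± 0.49 log2 units (adjusted p = 0.0612), followed by Ndn with 2.73 ± 0.70 (adjusted p = 0.124). H19 (4.79 ± 1.39, adjusted p = 0.166), Igf2 (7.09 ± 2.13, adjusted p = 0.177) and Dlk1 (6.96 ± 2.25, adjusted p = 0.209) came next in that test. Scaled to the spike-in totals, which moves the median of all genes by -2.19 here, the fitted differences of Meg3, Peg3, Peg10 and Grb10 were at or below 0.

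Single steps in time were not resolved for any member. For any difference among the 5 days, edgeR's quasi-likelihood test called 0 of 10 members beside 0.267% of genes, with 7 members below an unadjusted p of 0.05 (beside 7.3% of genes) and 6 called by DESeq2 (beside 7.96%). From Day 2 to Day 3, 0 members had an unadjusted p under 0.05 (beside 3.65% of genes) and DESeq2 called 0 (beside 1.03%). The edgeR test called 0 of 10 there, beside 0.0498% of genes. From Day 3 to Day 4 it called 0 of 10 beside 0% of genes (2.69% at an unadjusted p below 0.05, and 0.964% with DESeq2); H19, Igf2, Peg10 and Plagl1 were higher at unadjusted p-values under 0.05, of which Peg10 was called by DESeq2. From Day 4 to Day 5 it called 0 of 10 beside 0% of genes (3.70% unadjusted, 1.16% with DESeq2), with Igf2 lower at an unadjusted p under 0.05 and called by DESeq2. From Day 5 to Day 6 it called 0 of 10 beside 0% of genes (3.17% unadjusted, 0.802% with DESeq2), with Meg3 (1.65 ± 0.48) and Igf2 (4.55 ± 1.87 log2 units) higher at an unadjusted p under 0.05 and 0 members called by DESeq2. The Day 4 differences sit beside the single cells described above. Day 4 also had the highest summed CPM of 10 extraembryonic endoderm markers (275.3 in main and 259.25 in the pilot, mostly Lamb1, with Apoa1 at 0 in both and Gata4, Gata6, Sox17, Afp and Ttr at 0 in the pilot) and of 10 mesoderm and mesenchyme markers (57.4 and 33.6, with T and Mesp1 at 0 in both). Their part in the result was not tested.

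**Figure D3:**
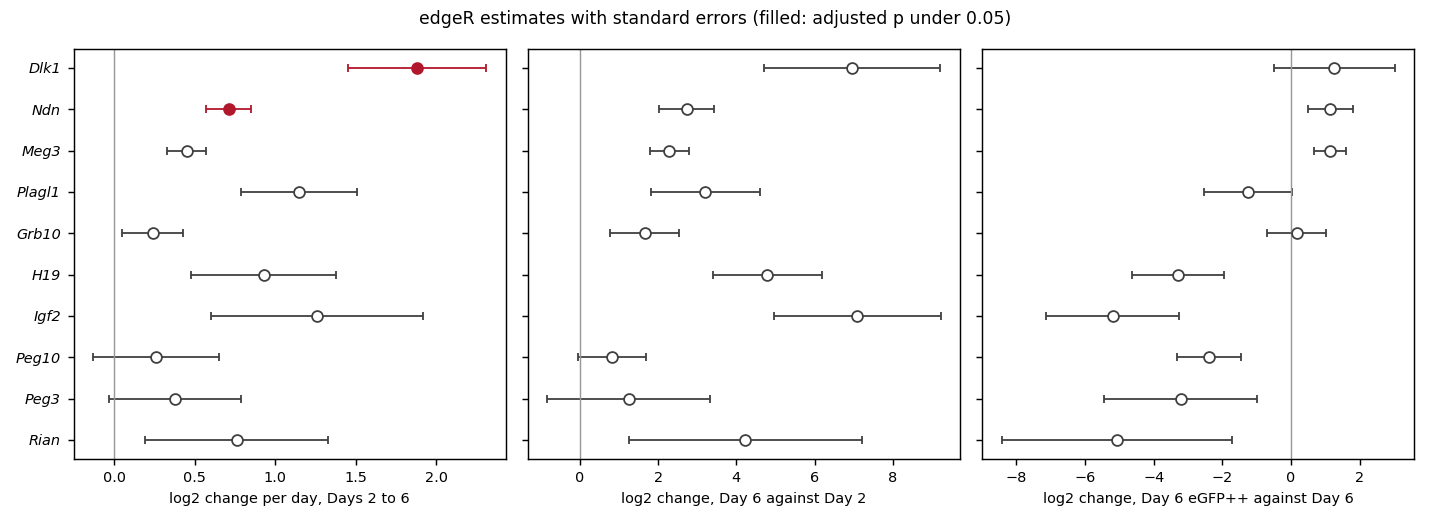
Fitted log2 change of each imprinted gene (points, with bars of ± 1 SE) for the slope over Days 2 to 6, for Day 6 against Day 2 and for Day 6 eGFP++ against Day 6, with filled points for an adjusted p under 0.05 in edgeR's quasi-likelihood test. Dlk1 and Ndn in the left panel are the only filled points, and in the right panel Meg3, Dlk1, Ndn and Grb10 lie above 0 and the other 6 below.

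The eGFP++ cells were compared with the unlabelled Day 6 cells to ask which members go with the brightest reporter cells. Meg3, Ndn and Dlk1 were higher in eGFP++ cells in both experiments, and H19, Igf2, Peg3, Peg10 and Plagl1 were lower in both. Meg3 was at 957 CPM in main and 408.4 CPM in the pilot, 2.72 and 1.68 times the Day 6 level. The 3 eGFP++ plates of main (822 to 1204.5 CPM) lay above all 4 Day 6 plates; in the pilot 40.99% of the eGFP++ reads came from 1 cell, and without the highest cell in each sum the values were 240.98 CPM against 130.2 CPM. Ndn was at 519.3 and 416.5 CPM, 1.74 and 2.97 times the Day 6 level, with the main plates (457.4 to 602 CPM) above those of Day 6. Dlk1 was at 632 and 661 CPM, 1.21 and 3.35 times the Day 6 level, and in main its plates (504.7 to 802 CPM) overlapped those of Day 6.

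The members that were lower in both experiments were left with few reads. H19 was at 13.02 CPM in main and 4.09 in the pilot, 2.42-fold and 44.95-fold below Day 6. Igf2 was at 2.02 and 0.428 CPM, 30.9-fold and 46.9-fold below. Plagl1 was at 13.2 and 50.3 CPM, 5.05-fold and 1.32-fold below, and 85.7% of its pilot reads came from 1 cell (7.21 CPM without it). Peg10 was at 1.48 and 3.115 CPM, and Peg3 at 0.816 and 0.672 CPM, both below Day 6 in each experiment. Grb10 (0.487 and 1.73 times Day 6) went in opposite directions in the 2 experiments. Rian was at 3.71 CPM in main against 3.19 on Day 6. In the pilot it had 1 read in eGFP++ cells, 0.00588 times the Day 6 level (exact 95% interval 1.49e-04 to 0.0329, counting error only), which itself came almost wholly from the single cell described above.

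By the test, none of these differences passed. The edgeR quasi-likelihood test called 0 of 10 members beside 0.0311% of genes (5 genes, all lower, where the median change of all genes was -0.52 and moves by 0.46 when scaled to the spike-in totals), with 4 members at an unadjusted p under 0.05 beside 6.29% of genes, and DESeq2 called 2 (Igf2 and Peg10, both lower) beside 3.20% of genes. Meg3 had 1.14 ± 0.47 log2 units, H19 -3.29 ± 1.35, Igf2 -5.20 ± 1.94 and Peg10 -2.39 ± 0.92, each with an adjusted p of 0.743. Without the pilot's eGFP++ sum, which holds 39 cells of 1 plate, the fitted change of Dlk1 was -0.27 in place of 1.26. The gate moved the other markers too: from Day 6 to eGFP++ cells the summed CPM of 8 neuron markers went from 3674 to 8716 in main and from 2732 to 10908 in the pilot, that of 8 neural progenitor markers from 837 to 154.3 and from 748 to 185.15, and that of 8 markers of dividing cells from 1530 to 412.1 and from 2220 to 293.15. All 8 tested mesoderm and mesenchyme markers had lower fitted values in eGFP++ cells, and their sum was 2.49 CPM in main and 0.0611 CPM in the pilot, against 19.5 and 3.41 CPM on Day 6. The sum of the extraembryonic endoderm markers was 37.7 and 0.977 CPM, against 64.4 and 47.5 CPM, with Gata4, Gata6 and Sox17 at 0 in both eGFP++ sums. Their part in the members' differences was not tested.

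At equal depth the shares followed the reads in main and less so in the pilot. Dlk1 was read in 64.5% (58.8 to 69.9) of eGFP++ cells in main and 58.97% (43.4 to 72.9) in the pilot, above the Day 6 shares of 45.8% and 23.9%; the intervals cover the counting of cells and not the spread between cultures. Ndn was read in 75.5% (70.2 to 80.2) of eGFP++ cells in main, above Day 6, but in 35.9% (22.7 to 51.6) in the pilot, where Day 6 had 45.1%. Meg3 was read in 45.7% (40.03 to 51.6) in main against 27.97% on Day 6, and in 15.4% against 18.3% in the pilot. Plagl1 was read in 4.255% and 5.13% of eGFP++ cells against 14.97% and 25.35% on Day 6. Igf2 was read in 0.709% of eGFP++ cells in main and in 0 of 39 in the pilot, which allows a share of up to 7.69% at this depth (3 cells of 39; the upper Wilson limit is 8.97%). Unthinned, 10.3% of those 39 cells had an Igf2 read. Thinned pilot eGFP++ cells had a median of 937 detected genes against 1678 on Day 6, and main cells 1639 against 1479, so equal reads did not give equal gene counts.

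**Figure D4:**
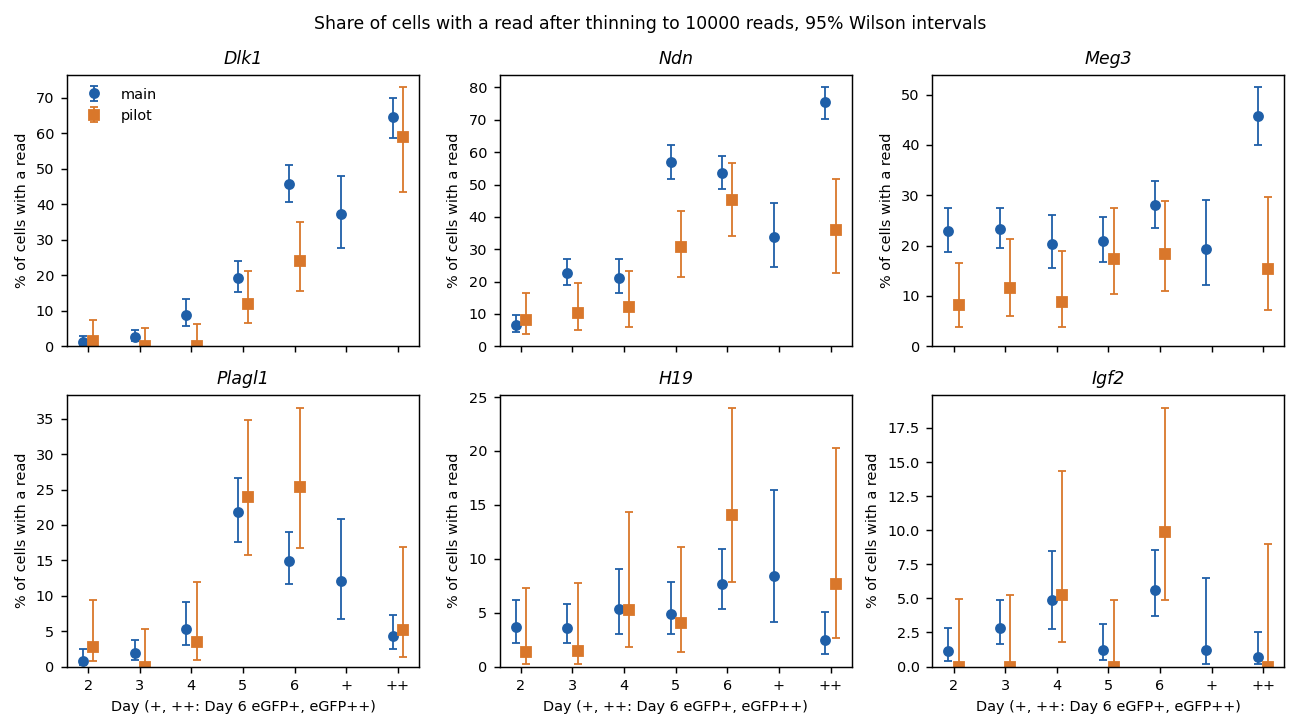
Percent of cells with at least 1 read of a gene after thinning every cell to 10000 gene reads (vertical axis, own scale per gene). The genes shown are Dlk1, Ndn, Meg3, Plagl1, H19 and Igf2. The horizontal axis gives the day, with + and ++ for Day 6 eGFP+ and eGFP++ cells. Blue circles are for main, orange squares for the pilot and bars for the 95% Wilson interval. Dlk1 and Ndn have higher shares on Day 6 than on Day 2 in both experiments, while the main share of Meg3 stays between 20.35% and 27.97% on the 5 days and is 45.7% in eGFP++ cells.

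The eGFP+ cells were 83 cells of 1 plate without a replicate. They did not lie between the unlabelled Day 6 and the eGFP++ cells for Meg3, Ndn or Dlk1. Meg3 was at 113.1 CPM and Ndn at 130.1 CPM, both below Day 6 of main (351.4 and 298.6 CPM). Dlk1 was at 434.6 CPM, below the Day 6 sum (521.5 CPM) but within the range of the Day 6 plates. Plagl1 was at 66.9 CPM, as on Day 6 (66.7 CPM), and H19 at 62.2 CPM was above it (31.5 CPM). Against eGFP+ cells, eGFP++ cells of main had 8.46 times the Meg3, 3.99 times the Ndn and 1.45 times the Dlk1 level, while H19 was 4.78-fold and Plagl1 5.07-fold lower; there is no replicate check on these ratios. Egfp itself was at 1488 CPM in eGFP+ cells, against 3804 CPM on Day 6 of main. The summed motor neuron markers (340 against 844 CPM) and neuron markers (1427 against 3674 CPM) were below Day 6 as well. The progenitor markers were above it (1006 against 837 CPM). Thinned eGFP+ cells had a median of 974 detected genes.

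Within the unlabelled Day 6 cells, the members divided by whether a cell had a read of any of the 8 motor neuron markers. Dlk1 was read in 53.7% of the main cells with such a read and in 33.1% of those without, and in 37.8% of 37 and 8.82% of 34 cells in the pilot. Ndn was read in 61.9% against 40.4% in main and in 54.1% against 35.3% in the pilot. Both genes were thus read more often in cells with a motor neuron marker, in both experiments. Plagl1 went the other way, with 11% against 21.3% in main and 16.2% against 35.3% in the pilot, and so did H19, with 4.13% against 13.2% and 10.8% against 17.6%. Meg3 differed little in main (28.9% against 26.5%) and had 24.3% against 11.8% in the pilot, and Igf2 had 5.05% against 6.62% and 8.11% against 11.8%. These shares describe cells of the 2 experiments and carry no test, and 26 main cells and 7 pilot cells had exactly 1 marker read.

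**Figure D5:**
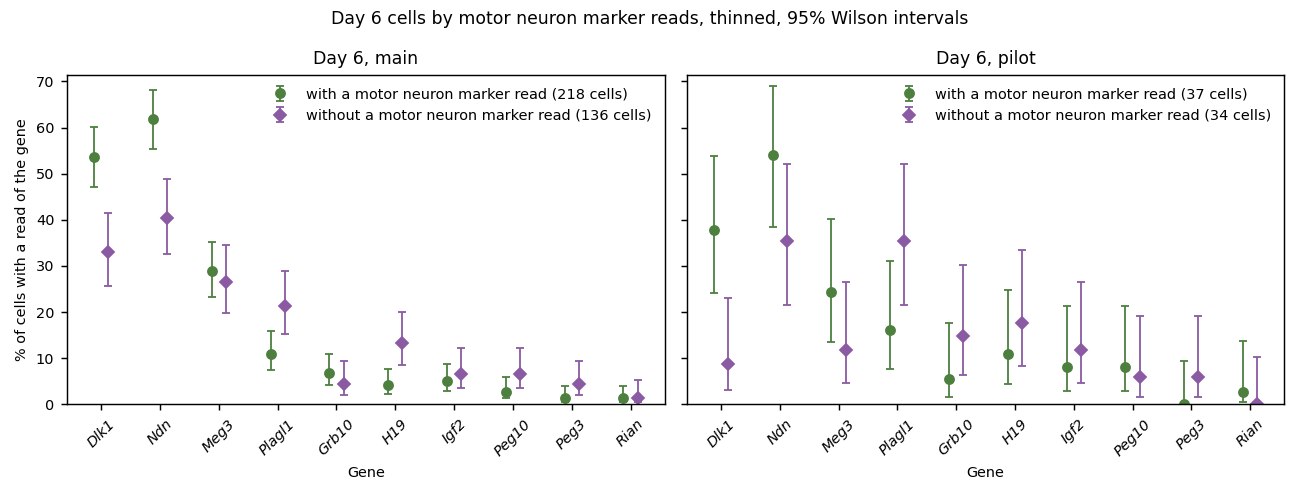
Percent of thinned, unlabelled Day 6 cells with a read of each imprinted gene (vertical axis), split into cells with and without a read of any of 8 motor neuron markers, for main (left) and the pilot (right), with bars for the 95% Wilson interval. Dlk1 and Ndn are higher in cells with a marker read and Plagl1 and H19 are lower, in both panels.

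Graded by the summed motor neuron marker reads of thinned Day 6 cells, the directions were alike. Spearman's rho was 0.27 (main) and 0.26 (pilot) for Ndn and 0.24 and 0.39 for Dlk1. For Plagl1 it was -0.21 and -0.29, and for H19 -0.16 and -0.10. The neuron and neural progenitor markers were taken as well. Across the thinned Day 6 cells of main and the 71 of the pilot, Spearman's rho between Ndn and the summed neuron markers was 0.41 and 0.32, and between Dlk1 and the same sum 0.30 and 0.39. For Plagl1 and the neuron markers it was -0.28 and -0.25, and for Plagl1 and the neural progenitor markers 0.27 and 0.38. Meg3 had 0.08 and 0.15 with the neuron markers. The cells share plates and cultures, and counts are sparse, so these values are descriptions.

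Reads of member pairs were also counted within thinned cells. On Day 6, 95 main cells had reads of both Dlk1 and Ndn where independent shares would give 86.95, and 12 of 71 pilot cells where they would give 7.66 (Spearman's rho 0.17 and 0.32). Dlk1 and Meg3, neighbours in the genome, were both read in 41 main cells on Day 6 where independence would give 45.3, and in 73 eGFP++ cells of main where it would give 83.3. Their rho in those eGFP++ cells was -0.24. H19 and Igf2 shared 5 of their 27 and 20 main cells on Day 6, where independence would give 1.525 (rho 0.17). Across the 6 groups, in contrast, log2(CPM + 1) of Dlk1 and Ndn had a Pearson correlation of 0.95 in main and 0.88 in the pilot, Meg3 and Dlk1 0.89 and 0.80, Meg3 and Ndn 0.84 and 0.78, and H19 and Igf2 0.64 and 0.98. The 6 groups share the time course, and the H19 and Igf2 values of the pilot include the Day 4 cells named above. Meg3 and Rian had 0.60 and 0.35.

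Other genes with the most similar course were found by the lower of 2 correlations, over the 6 groups of main and the 6 of the pilot, among 7234 genes. For Dlk1 they were Nhlh2 (0.99 in both), a helix-loop-helix transcription factor of neurons, Brsk2 (0.98 and 0.99), a kinase of neuronal polarity, and Myt1 (0.996 and 0.981), a zinc finger factor of neuronal differentiation. Nhlh2 was at 0.135 CPM on Day 2, 140 on Day 6 and 280.7 in eGFP++ cells in main, and at 0, 118.9 and 375.2 CPM in the pilot. For Meg3 they were Tmsb10 (0.94 and 0.98), which binds actin monomers, Map2 (0.94 and 0.95), a dendritic microtubule protein, and Pbx3 (0.94 and 0.94), a homeobox factor. Map2 was at 3.15 CPM on Day 2, 110.5 on Day 6 and 251.4 in eGFP++ cells in main. For Ndn they were Zfyve20 and Epb4.1 (each 0.99 in both) and Spag9 (0.98 in both), and for Plagl1 Rnf26, Srek1ip1 and Peli2. The leading genes were Esd for H19, Idh3b for Igf2, D10Wsu102e for Peg10, Tmco1 for Grb10, 0610037L13Rik for Peg3 and Ndufc1 for Rian. With 6 points in each experiment, many of 7234 genes reach high values, and the correlation is a description.

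The members were set beside the other genes known to be imprinted. Of 24 further paternally expressed genes, 20 were tested, and 1 was called higher over Days 2 to 6, beside 4.18% of all genes called. It was Nnat, which encodes the membrane proteolipid neuronatin. Nnat had 9.82 CPM on Day 2 and 271.4 on Day 6 in main, and 31.5 and 282.7 CPM in the pilot (0.92 ± 0.13 log2 units per day, adjusted p = 0.00485, edgeR quasi-likelihood test). It was also called for Day 6 against Day 2 (3.66 ± 0.73 log2 units, adjusted p = 0.0480), and its reads cannot be told from those of Blcap, in which it lies. Of 27 further maternally expressed genes, 24 were tested and 2 were called higher, beside the same 4.18%. Gnas, which encodes the stimulatory G protein subunit, went from 143.1 to 702.5 CPM in main and from 239.5 to 773 CPM in the pilot (0.41 ± 0.08 per day, adjusted p = 0.0220, edgeR quasi-likelihood test). Cdkn1c, which encodes the cyclin-dependent kinase inhibitor p57, rose from 16.3 to 331.6 CPM in main and from 77.4 to 267.9 CPM in the pilot (0.71 ± 0.15 per day, adjusted p = 0.0247). The median slopes of these lists were 0.30 for the paternally and 0.10 for the maternally expressed genes, below the members' 0.74 and above the 0.02 of all genes; whether the lists differ was not tested. In eGFP++ against Day 6 neither list had a call by edgeR's quasi-likelihood test, beside 0.0311% of all genes. At an unadjusted p under 0.05 it was 0 genes for the paternal and 2 for the maternal list, beside 6.29% of all genes. DESeq2 called 1 gene over both lists, beside 3.20% of all genes. The noncoding Kcnq1ot1 had its highest value in the pilot's Day 5 (676 CPM), Inpp5f (310.8 CPM) and Nap1l4 (244.95 CPM) in the pilot's eGFP++ cells. Snrpn and Snurf, which overlap each other in the same region as Ndn, were counted at 0 reads in all 13 sums.

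In the insulin-like growth factor pathway, Igf2 is a ligand and Grb10 an adaptor. Of its 15 listed genes, 14 were tested and 1 was called higher over the days, beside 4.18% of all genes called. Counts this small were not read as a property of these lists. Irs1, a docking protein of the insulin and insulin-like growth factor receptors, went from 4.45 to 83.2 CPM in main and from 16.3 to 71.8 CPM in the pilot (0.66 ± 0.16 log2 units per day, adjusted p = 0.0376, edgeR quasi-likelihood test). It was at 181.3 and 653 CPM in eGFP++ cells and had 0 reads in eGFP+ cells. Igfbp2, a binding protein of these growth factors, was at 259.3 and 254.9 CPM on Day 2 and at 429.4 and 859 CPM on Day 6, and Igf2bp1, which binds Igf2 messenger RNA, was highest in main on Day 5 (558.5 CPM); neither passed the test of the slope.

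Of 12 genes that keep or remove methylation at imprints, all tested, 2 were called lower and 0 higher, beside 4.18% of all genes called. Their median slope was -0.30 log2 units per day, with 9 below 0 and 3 above it (Zfp57 0.61, Tet2 0.43 and Tet3 1.52, none of which passed). Dnmt3b, a de novo DNA methyltransferase, fell from 856 CPM on Day 2 to 3.57 on Day 6 in main and from 874 to 4.83 CPM in the pilot (-1.88 ± 0.14 log2 units per day, adjusted p = 0.000227, edgeR quasi-likelihood test). Tet1, an enzyme that oxidises methylcytosine, fell from 137.7 to 27.5 CPM and from 98.1 to 9.19 CPM (-0.74 ± 0.16 per day, adjusted p = 0.0254). Between Day 2 and Day 6, Dnmt3b (adjusted p = 0.00415) and Dppa3, which protects imprints in the early embryo (38.7 to 0 CPM in main, 37.6 to 0.0311 CPM in the pilot, adjusted p = 0.0181), were called lower by edgeR's quasi-likelihood test. The maintenance factor Uhrf1 had 250.99 and 490.4 CPM on Day 2 and 60.7 and 183.5 CPM on Day 6, and Trim28 330.3 and 481.8 against 158.8 and 183.1 CPM, without passing the test of the slope. Dnmt3b and Dppa3 are also genes of pluripotent cells, whose 8 markers had a median slope of -1.93 log2 units per day with 7 called lower.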

How the data were processed

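The data are CEL-seq read counts of single mouse cells; the authors deposited whole-number counts per gene and cell, made per the submitters' processing notes with TopHat2 2.1.1 and HTSeq 0.6.1 on mm10. The order and settings of these steps, and the strand setting of the counting, are not given in the sources used here. In the deposited count tables, 5 summary lines (34.95% of reads) and 92 spike-in sequences (6.162%) name no gene and stayed out of library sizes, 27 names not alike in every table were left out, and 40 columns of 1 further table match no sample and were not used. Columns were placed by their plate's group. Of 2744 cells, 2448 with at least 500 detected genes were kept (35 plates); doublets were not called. For the shares of cells, each cell was thinned at random to 10000 gene reads. A floor of 3 reads per sum stands in for 0 in members' ratios, and for all sums below it in the medians of ratios.

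Reads summed per group and experiment were tested with edgeR 4.0.16 (quasi-likelihood, two-sided, TMM, filterByExpr, limma 3.58.1, R 4.3.3), with the experiment as a block and Benjamini-Hochberg adjustment at 0.05 over all genes tested: 12 sums for groups (5 residual degrees of freedom, common dispersion 1.12) and 10 sums for the slope on day (7, 1.27). Day 6 eGFP+, 1 sum, stayed out of the fit. DESeq2 1.42.0 was an alternative, as were other scalings, filters, plates and leaving out each sum. Deviations from the group means of sums from the same experiment correlated at 0.0479 to 0.251 (median 0.107, 15 pairs). Values were computed in Python 3.11.15 (pandas 2.3.3, numpy 2.4.6, matplotlib 3.10.9 and scipy 1.17.1), and the tests were tried on simulated data. The members and gene lists were chosen with earlier results of these data known. All members are named; of the other lists, genes that passed in the slope, Day 6 against Day 2 or eGFP++ against Day 6, and the 3 per list with the highest CPM in any sum; and for each member the 3 genes of most similar course.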

Additional observations from a re-analysis of the deposited data

Results flagged for a closer look

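Of 40 groups of 4 to 5 plates that were tested for a plate standing apart, 4 did so; chance alone gives about 1 in 20 such groups. On Day 2 of main, the highest of 4 plates had 1.581 CPM of Igf2, with the nearest other plate at 0.6379 CPM. On Day 6 of main, the highest of 4 plates had 157.6 CPM of Igf2, with the nearest at 37.68 CPM. On Day 5 of main, the lowest of 4 plates had 81.36 CPM of Meg3, with the nearest at 115.96 CPM. On Day 2 of main, the highest of 4 plates had 7.628 CPM of Peg10, with the nearest at 2.817 CPM.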

How the results depend on the processing

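The slope of Dlk1 was positive under every alternative run. With spike-in totals as library sizes, the slopes of Meg3 (-0.13), Peg3 (-0.09), Peg10 (-0.22) and Grb10 (-0.34 log2 units per day) and the Day 6 against Day 2 changes of Meg3 (-0.0049), Peg3 (-0.76), Peg10 (-1.26) and Grb10 (-0.77) turned. Grb10 also turned when cells with a read were counted in place of reads (-0.08 per day, -0.10 for Day 6 against Day 2, -0.33 for eGFP++ against Day 6), in cells thinned before summing (-0.13 for eGFP++) and in a fit of only the 2 groups (-0.03 for eGFP++). Leaving out 1 sum turned the slope of Peg10 (-0.02 to 0.58, lowest without Day 2 of main), Day 6 against Day 2 of Rian (-1.40 to 5.55) and Peg3 (-0.15 to 2.70, both lowest without Day 6 of the pilot), and eGFP++ against Day 6 of Dlk1 (-0.27 to 2.12) and Grb10 (-1.25 to 0.96, both lowest without the pilot's eGFP++ cells). The cause was not tested.

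The number of members called for the slope (2) was 1 with spike-in totals, 6 with DESeq2, 6 with cells counted and 5 with thinned cells. For any difference among the days (0), it was 6, 6 and 4 with DESeq2, cells counted and thinned cells. For Day 6 against Day 2 (0) it was 5 with DESeq2, 3 with only the 2 groups, 7 with cells counted and 5 with thinned cells. For eGFP++ against Day 6 (0) it was 2 with DESeq2 and 2 with cells counted. For Days 4 against 3 and 5 against 4 it was 1 with DESeq2, and for Days 3 against 2 and 6 against 5 it was 1 with cells counted. Of the other imprinted genes, 3 were called for the slope, 11 with spike-in totals, 12 with DESeq2, 12 with cells counted, 10 with thinned cells and 5 with the top cell of each gene left out, which was chosen after seeing the data. For Day 6 against Day 2, 1 of them was called, 0 with DESeq2's size factors, with no filter on low counts, at 1000 detected genes or without the poor plates, 2 with totals only, spike-in totals or no cell filter, 11 with DESeq2, 4 with only the 2 groups, 12 with cells counted and 5 with thinned cells. For eGFP++ it was 1 with DESeq2 in place of 0. Of all genes, DESeq2 called 15.9% for the slope and 7.96% for any difference among the days. It called 12.7% for Day 6 against Day 2 and 3.20% for eGFP++ against Day 6. Shares of all genes under the other settings are not given here. The counts in this section were therefore not read as a result about the imprinted genes.

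Leaving out each sum in turn gave 0 to 4 members for the slope, 0 to 1 for Day 6 against Day 2 and 0 to 0 elsewhere, and 1 to 4, 0 to 3 and 0 to 2 of the other imprinted genes for the slope, Day 6 against Day 2 and eGFP++. Without the replicate block (the experiment term), the same 2 members, Dlk1 and Ndn, passed for the slope and 0 in each of the other 7 comparisons, as with it. Sums of few deep cells limit the low members: Rian, Peg3, Igf2 and Peg10 rest on 0 to 126.2 CPM, often from 1 cell, and sums of 39 to 75 cells carry the pilot.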
